A study of Mus musculus with 3 samples.

Results

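The Stat genes encode the signal transducers and activators of transcription, and 6 of them (Stat2, Stat3, Stat4, Stat5a, Stat5b and Stat6) were described here, chosen by gene symbol from 50600 annotated genes. The data are total RNA-seq of primary C57BL/6NJ mouse cells that the labels call T-helper 1 (Th1), a CD4 T cell subset known for interferon gamma, in 3 libraries given as biological replicates 1, 2 and 3. The labels give a shared donor identifier with separate biosamples, an unknown age, sex as not collected and no treatment, and the header of each count table carries a time of 0 hours. With 1 group, no condition could be compared, so comparisons were made between genes within a library and between the libraries. Any p-value over the libraries speaks of these 3 samples only, and differences between them may be technical.

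A Stat protein waits in the cytoplasm until a cytokine binds its receptor and the receptor's Jak kinases phosphorylate a tyrosine in the Stat tail. Phosphorylated Stat proteins pair, enter the nucleus and bind DNA, and Socs proteins, Pias proteins and tyrosine phosphatases damp the signal. In helper T cells the members are known for different cytokines: Stat4 for interleukin 12 and Th1 fate, Stat6 for interleukin 4 and Th2 fate, Stat3 for interleukins 6, 21 and 27, Stat5a and Stat5b for interleukins 2 and 7, and Stat2 for type I interferon. RNA levels say nothing of phosphorylation.

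The cells were checked against marker genes first. All 8 T cell markers examined (among them Cd4 and Lck) reached 1 TPM (counts per exon length, scaled to the same sum in each library) in every library, with summed levels of 2090, 3325 and 958 TPM in replicates 1, 2 and 3. The 4 naive T markers also did, with 1038, 1712 and 528 TPM, whereas none of the 3 Th1 markers Tbx21, Ifng and Cxcr3 did, with sums of 0.624, 1.80 and 0 TPM. The label T-helper 1 is therefore not matched by its defining markers in these counts, and the cells are called by their label below. Of the other lists, 2 of 6 B cell markers, 1 of 4 myeloid, 1 of 2 CD8 T cell and 0 of 3 NK markers reached 1 TPM in every library, with Ms4a1, Pax5, Adgre1, Klrb1c and Klre1 at 0 counts. Summed levels over replicates 1 to 3 were 123 to 401 TPM for B cell markers, nearly all from Ighm and Cd79a, and 68.0 to 95.9 TPM for myeloid markers, nearly all from Csf1r, whose exons overlap a gene of the other strand. Their part in the Stat levels was not tested, and in bulk RNA fewer cells of a type and less RNA per cell cannot be told apart.

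The libraries held 3647366, 4305077 and 2510319 counts. Genes whose exons overlap exons of the other strand, 8189 of the 50600 annotated, took 63.1%, 53.8% and 76.5% of them. Counting required the first read to lie on the strand of the gene, and the library kit is not given in the sources used here. If the kit is oriented the other way, most reads of the Stat genes themselves were left out. The counts given to them would then come mostly from the strand opposite to them. The orientation was not tested, so the Stat levels below hold only if it matches the counting. Replicate 3 was the shallowest and had the largest share in overlapping genes, and the calls of differences between libraries are given without it as well.

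Stat5a and Stat5b are neighbouring copies, and how far their sequences can be separated decides what their counts mean, so their coding sequences are shown. Over 2340 aligned coding bases they were 90.7% identical, against 55.5% to 63.4% for the other 14 pairs of the 6 genes (reference transcripts of GENCODE M21, build GRCm38). The longest identical coding run was 324 bases, and the part of it that lies in a single exon of each gene (152 bases, chr11:100874339-100874490 on the plus strand in Stat5a and chr11:100798234-100798385 on the minus strand in Stat5b) reads as follows.
Stat5a and Stat5b: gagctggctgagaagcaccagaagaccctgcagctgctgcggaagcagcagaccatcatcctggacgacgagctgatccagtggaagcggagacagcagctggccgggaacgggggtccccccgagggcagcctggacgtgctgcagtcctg
A fragment that lies wholly within it fits both genes. Toward the 3′ end of the coding sequence the copies part: of all ungapped 60-base coding windows within a single exon, the following pair differed most, with the 19 differing bases in capitals (chr11:100883836-100883895 on the plus strand for Stat5a, chr11:100783161-100783220 on the minus strand for Stat5b).
Stat5a: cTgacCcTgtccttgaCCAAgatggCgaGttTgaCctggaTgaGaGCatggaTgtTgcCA
Stat5b: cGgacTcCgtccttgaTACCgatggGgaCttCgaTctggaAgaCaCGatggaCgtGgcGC
Of all 50-base windows of the longest coding transcript, 15.8% in Stat5a and 11.8% in Stat5b also occurred, in the same orientation, in a transcript of another gene. The counting command holds no option for fragments that map to several places, so those within shared windows may be missing from both genes, and the ratio of Stat5b to Stat5a is uncertain to that extent. In Stat4, 28.6% of windows occurred in another gene, all in Gm28177, which lies on the same strand of the same locus. Stat2 and Stat6 had no such window in this orientation, nor had Stat3.

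All 6 Stat genes were present in every library, and in mean level Stat6 was the highest and Stat5a the lowest (positions on mm10, as deposited). Each reached 1 TPM in all 3 libraries, as did 41.6% of 21764 protein-coding genes. Stat6, the transducer of interleukin 4 signals (ENSMUSG00000002147.18, chromosome 10, 127642986 to 127660957, plus strand), had 565, 837 and 296 counts in replicates 1, 2 and 3, which are 68.2, 97.0 and 45.0 TPM. Its mean of 70.1 ± 26.1 TPM (SD, n = 3) exceeded that of 95.5% of protein-coding genes. Replicate 2 was high and replicate 3 low, an order that all 6 genes shared on this scale.

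Stat4, which transmits interleukin 12 signals and is needed for Th1 fate (ENSMUSG00000062939.11, chromosome 1, 51987148 to 52107189, plus strand), had 122, 158 and 40 counts, or 16.7, 20.8 and 6.91 TPM. The mean was 14.8 ± 7.15 TPM (SD, n = 3), the 5th of the 6 levels, and exceeded that of 80.4% of protein-coding genes. Of its 3872 exonic bases, 1033 (26.7%) are shared with exons of Gm28177 on the same strand, where fragments that fall on both genes were not counted by default. Gm28177 itself had 6, 4 and 11 counts.

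Stat5b stood above its copy Stat5a in every library. Stat5b (ENSMUSG00000020919.11, chromosome 11, 100780731 to 100850724, minus strand) had 424, 646 and 125 counts, or 40.7, 59.5 and 15.1 TPM, with a mean of 38.4 ± 22.3 TPM (SD, n = 3). Stat5a (ENSMUSG00000004043.14, chromosome 11, 100859351 to 100885169, plus strand) had 155, 191 and 58 counts, or 11.5, 13.7 and 5.44 TPM, with a mean of 10.2 ± 4.27 TPM (SD, n = 3). Both are known to carry interleukin 2 and interleukin 7 signals in T cells. The count of Stat5b was 2.74 times that of Stat5a in replicate 1 (exact binomial 95% interval 2.27 to 3.31), 3.38 times in replicate 2 (2.87 to 3.996) and 2.16 times in replicate 3 (1.57 to 2.996). These intervals cover counting error only. Those of all 3 libraries overlap, which does not test whether the ratio differed between libraries.

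Stat3, the transducer of interleukins 6, 21 and 27 (ENSMUSG00000004040.16, chromosome 11, 100885098 to 100939540, minus strand), had 547, 677 and 162 counts, or 30.5, 36.3 and 11.4 TPM, with a mean of 26.05 ± 13.03 TPM (SD, n = 3). Stat2, which pairs with Irf9 in the type I interferon response (ENSMUSG00000040033.16, chromosome 10, 128270559 to 128292849, plus strand), had 175, 263 and 109 counts, or 15.7, 22.7 and 12.3 TPM, with a mean of 16.9 ± 5.27 TPM (SD, n = 3). Stat2 was the least variable on this scale, with a coefficient of variation of 31.2%, and Stat5b the most, with 58.0%. In replicates 1 and 2 Stat3 lay above Stat2, and in replicate 3 the levels were close, with exact Poisson 95% intervals of 9.69 to 13.3 TPM for Stat3 and 10.1 to 14.8 TPM for Stat2.

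**Figure D1:**
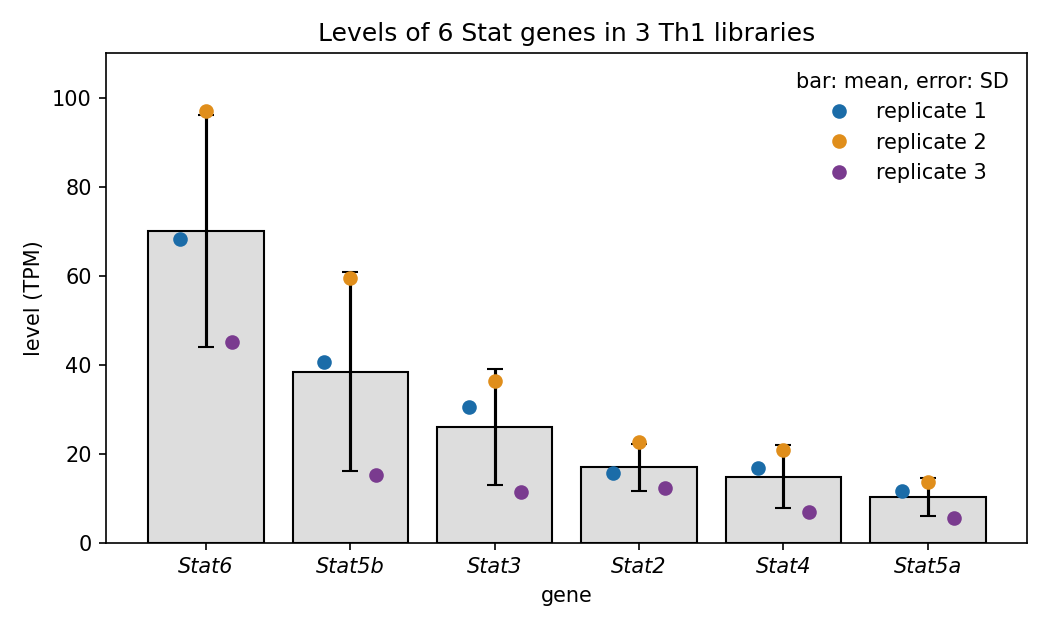
Level of each Stat gene in TPM (vertical axis) by gene (horizontal axis). Points are the 3 libraries, bars the mean and error bars the SD. Stat6 lies highest in each library, and replicate 3 gives the lowest point of every gene.

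The order of the means was Stat6, Stat5b, Stat3, Stat2, Stat4 and Stat5a. The ranges over libraries of every neighbouring pair in this order overlapped, so the order was examined within each library. Stat6 lay above each of the other genes in 3 of 3 libraries. In all, 13 of the 15 pairs kept 1 direction in all 3 libraries, and the exceptions were Stat3 with Stat2 and Stat2 with Stat4. An exact two-sided sign-flip test over 3 libraries cannot give a p below 0.25, so no pair could pass the threshold of 0.05: those 13 pairs had p = 0.25 (adjusted p = 0.288 over the 15 pairs, exact test) and the 2 exceptions p = 0.5.

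The interleukin 4 transducer Stat6 exceeded the interleukin 12 transducer Stat4 by a log2 ratio of 2.02, 2.21 and 2.68 in replicates 1, 2 and 3 (ratios of TPM + 0.1, mean 2.31 ± 0.34, SD, n = 3). Stat5b exceeded Stat5a by 1.81, 2.12 and 1.46 (mean 1.79 ± 0.33, SD, n = 3). Stat3 exceeded Stat4 by 0.86, 0.80 and 0.71, the pair with the smallest spread (mean 0.79 ± 0.076, SD, n = 3). Stat2 against Stat4 was −0.093, 0.12 and 0.82, and this difference was within its spread (mean 0.28 ± 0.48, SD, n = 3). As a share of the summed TPM of the 6 genes, Stat6 held 37.2%, 38.8% and 46.8% in replicates 1, 2 and 3. Stat5b held 22.2%, 23.8% and 15.7%, and Stat4 9.13%, 8.33% and 7.19%.

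**Figure D2:**
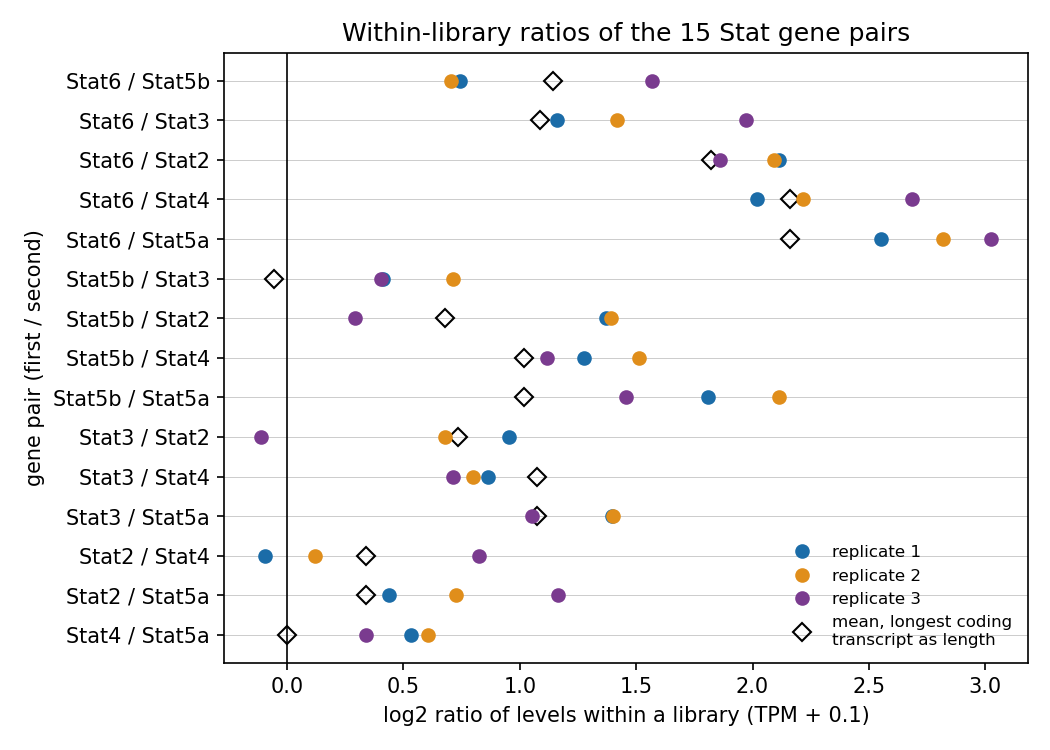
Log2 ratio of the level of the first to the second gene (horizontal axis) for the 15 pairs (vertical axis). Filled points are the 3 libraries and open diamonds the mean with the longest coding transcript as gene length. Only Stat3 / Stat2 and Stat2 / Stat4 have library points on both sides of 0, and the diamonds of Stat5b / Stat3 and Stat4 / Stat5a lie at −0.057 and −0.0023.

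The order below Stat6 depended on the length by which counts were divided. The deposited length sums every annotated exon, retained introns included, and was 1.83 times the longest protein-coding transcript for Stat5a (7133 against 3888 bases) and 1.58 times for Stat3 (9527 against 6042), but 1.06 times for Stat5b (5539 against 5213). With the longest coding transcript as length, Stat6 stayed highest at 69.3 ± 23.5 TPM. Stat3 (34.8 ± 16.6 TPM) and Stat5b (34.5 ± 19.1 TPM) were then level, with a log2 ratio of Stat5b to Stat3 of −0.057 ± 0.18 in place of 0.51 ± 0.18 (SD, n = 3). Stat4 (16.3 ± 7.46 TPM) and Stat5a (15.9 ± 6.24 TPM) also met. The excess of Stat5b over Stat5a was 3.46-fold with summed exons and 2.02-fold with the longest coding transcript, with the same direction in 3 of 3 libraries. When the bases that Stat4 shares with Gm28177 were left out of its length, Stat4 stood at 19.7 ± 9.50 TPM, above Stat2 at 16.4 ± 5.19 TPM, with a log2 ratio of Stat2 to Stat4 of −0.16. The mean log2 ratio of Stat3 to Stat4 was then 0.35, against 0.79 with summed exons and 1.08 with the longest coding transcript. That of Stat6 to Stat4 was 1.87, against 2.31 and 2.16. In mean TPM, Stat6 was the highest and Stat5a the lowest under each of these lengths. With the longest coding transcript, however, Stat4 exceeded Stat5a in only 2 of 3 libraries, and their mean log2 ratio was −0.0023.

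**Figure D3:**
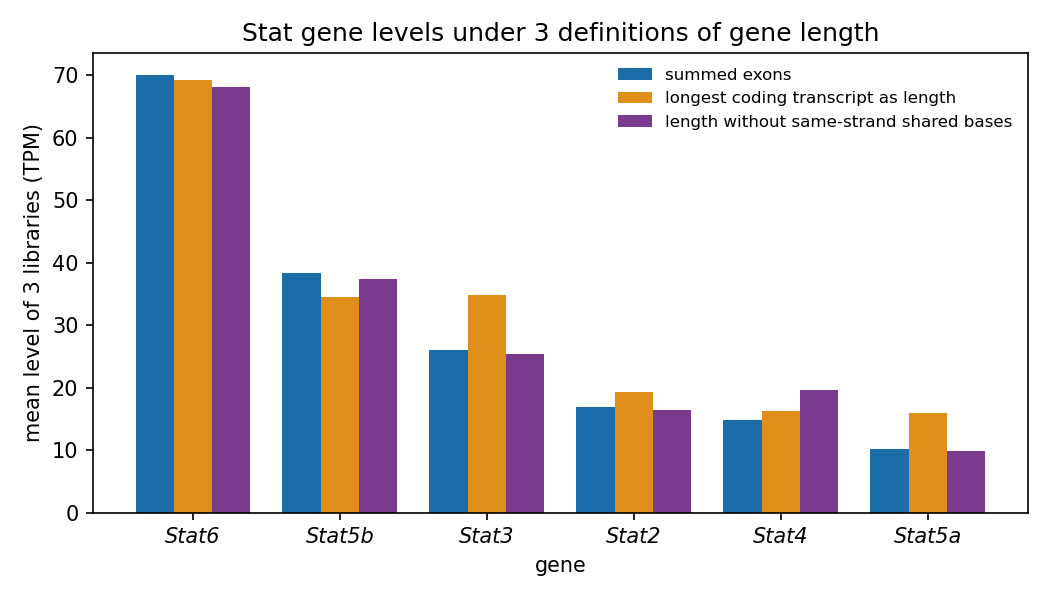
Mean level of the 3 libraries in TPM (vertical axis, no error shown) of each Stat gene (horizontal axis) under 3 definitions of length. Bars of Stat5b and Stat3 are 38.4 and 26.05 TPM with summed exons and 34.5 and 34.8 TPM with the longest coding transcript.

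The next question was whether the Stat genes differed between the 3 libraries by more than counting error. With library sizes from TMM (trimmed mean of M-values), Stat5b and Stat3 were called as differing and Stat6, Stat2, Stat4 and Stat5a were not. This is 2 of 6, where 62.4% of the 10662 genes tested were called (Poisson chi-square test, Benjamini-Hochberg adjusted p below 0.05). All 6 passed the filter on low counts. Stat5b had 109.8, 118.3 and 66.9 CPM (counts divided by TMM library size) in replicates 1, 2 and 3 (adjusted p = 9.01e-08), and Stat3 had 141.7, 124.0 and 86.6 CPM (adjusted p = 7.00e-07). Both were lowest in replicate 3. Of the 10662 tested genes 6649 were called, and 2908 (27.3% of those tested) were both called and lowest in replicate 3. Marker genes moved too: all 8 T cell markers were called and lowest in replicate 3, with TMM-scaled log2 levels there of −0.51 (Trac) to −0.19 (Cd2) from their means, against −0.51 for Stat5b and −0.41 for Stat3. Of the other markers, Csf1r stood at 0.88, Cd79a at 0.82 and Ighm at −0.69. The part of the marker shifts in the Stat calls was not tested. Stat6 had 146, 153 and 158 CPM, within counting error (adjusted p = 0.562), and Stat2 had 45.3, 48.2 and 58.3 CPM (adjusted p = 0.149). Stat4 had 31.6, 28.9 and 21.4 CPM (adjusted p = 0.138) and Stat5a 40.1, 35.0 and 31.0 CPM (adjusted p = 0.247). The test compares these libraries, not conditions.

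These calls rested on replicate 3 and on the scaling. Without replicate 3, neither Stat5b (adjusted p = 0.391) nor Stat3 (adjusted p = 0.0621) was called by the same test. Of the 10662 tested genes, 3316 (31.1%) were. With total counts as the scale all 6 Stat genes were called (82.5% of tested genes), each with replicate 3 lowest. With TMM over genes free of exon overlap with the other strand, 4 were called (53.6% of tested genes): Stat3 and Stat5b with replicate 3 lowest, and Stat6 and Stat2 with replicate 3 highest. The scalings move all genes together: the median over tested genes of the log2 difference between replicate 3 and the mean of replicates 1 and 2 was −0.055 with TMM, 0.010 with DESeq2 size factors, −0.67 with total counts and 0.21 with TMM over genes free of overlap. Relative to that median, with TMM, Stat5b stood at −0.71, Stat3 at −0.56, Stat4 at −0.43 and Stat5a at −0.21, while Stat2 stood at 0.37 and Stat6 at 0.13. These positions hardly depend on the scaling, since a scaling shifts every gene and the median alike.

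**Figure D4:**
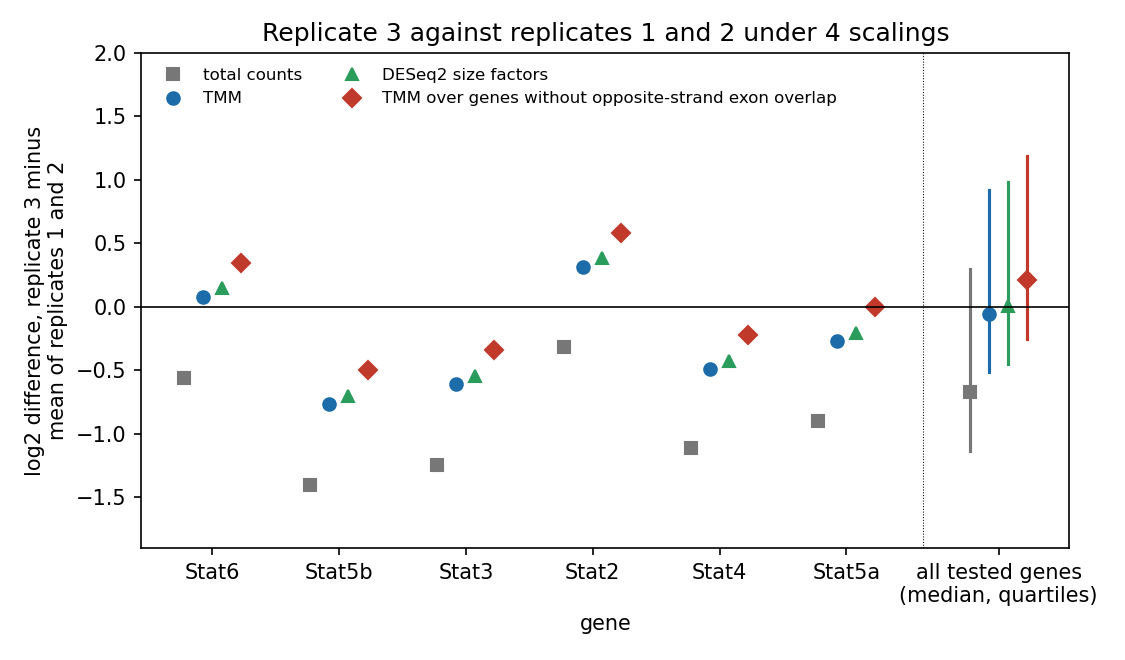
Log2 difference between replicate 3 and the mean of replicates 1 and 2 (vertical axis) for each Stat gene under 4 scalings, with the median and quartiles of all 10662 tested genes at the right. Points of all genes shift together between scalings, and Stat2 (0.32 with TMM) and Stat5b (−0.77 with TMM) are the ends of the family.

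Replicate 3 also stood apart by strand class, so the neighbours of each Stat gene were read with it. The log2 count ratio of replicate 3 to replicate 2 had a median of −1.92 (quartiles −2.32 to −1.42) over 6244 tested genes without exon overlap with the other strand. Over 4418 genes with such overlap it was −0.53 (quartiles −1.74 to 0.12), and for the library totals −0.78. Of the Stat genes without such overlap, Stat4 (−1.98) lay between the quartiles of its class, Stat5b (−2.37) below the lower and Stat2 (−1.27) above the upper. Of those with a short overlap, Stat5a (−1.72) and Stat6 (−1.50) lay between the quartiles of both classes, and Stat3 (−2.06) below the lower quartile of genes with overlap and between those of genes without. Whether the strand class has a part in the Stat differences was not tested.

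Overlap with the other strand was short in this family. Stat3 and Stat5a run toward each other and share 72 exonic bases at their 3′ ends, so each is the other's opposite-strand neighbour. Stat6 shares 40 exonic bases with Nab2, a corepressor gene, which had 370, 456 and 250 counts. On the strand of Stat6, 2882 bases beyond its end and opposite to Nab2, Gm16229 had 2036, 2041 and 2387 counts, more than Stat6 in each library and highest in replicate 3. Gm31812 lies 932 bases downstream of Stat4 on the other strand and had 151, 126 and 174 counts. Within the span of Stat4 the pseudogene Gm3940, on the other strand and outside its exons, had 15, 9 and 8 counts. Stat2 and Stat5b had no exon overlap with the other strand. The nearest genes there were Il23a, which encodes a subunit of interleukin 23, 3290 bases from Stat2 with 0, 1 and 3 counts, and Stat5a, 8627 bases from Stat5b.

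Genes around the Stat proteins in the pathway were then described, to ask which parts of each route were present. Of 77 pathway genes, 47 (61.0%) reached 1 TPM in all 3 libraries, against 41.6% of protein-coding genes. The median of the mean log2(TPM + 0.1) was 2.72 over pathway genes, 4.29 over the 6 Stat genes and −0.97 over all protein-coding genes. Receptors and Jak kinases were mostly present, and cytokine ligands were mostly at 0 counts. In the list of 12 ligands (median −3.32), 7 had 0 counts in all 3 libraries, and the single gene at 1 TPM in each was Il4 with 22, 18 and 27 counts, or 9.52, 7.49 and 14.7 TPM. Ifnb1, which encodes a type I interferon, was among those at 0. The doubt about strand holds for the levels of the pathway and marker genes as well, and 19 of the 77 pathway genes have exons that overlap the other strand.

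All 4 Jak kinases were present (median 4.72). Jak1, which serves nearly all of these receptors, had 165.8, 256.7 and 78.2 TPM in replicates 1, 2 and 3, more than any Stat gene in each library. Jak2, which serves the interleukin 12 receptor, stood at 33.04 ± 17.6 TPM, and Jak3, the partner of the common gamma chain, at 26.7 ± 14.3 TPM (SD, n = 3). Tyk2, which serves the interferon and interleukin 12 receptors, was the lowest at 20.4 ± 8.67 TPM, with 554 exonic bases that overlap the other strand. Of the 4, Jak1, Jak2 and Jak3 were called as differing between libraries in the test above (62.4% of all tested genes were), and without replicate 3, 2 of 4 were (31.1% of all tested genes).

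The receptor of type I interferon, upstream of Stat2, was present with both chains. Ifnar1 had 23.1, 44.02 and 8.20 TPM in replicates 1, 2 and 3, and Ifnar2 stood at 17.2 ± 7.90 TPM (SD, n = 3). All 6 receptor chains upstream of Stat3 were present (median 5.28), from Il10ra at 6.44 ± 1.05 TPM to Il27ra, the interleukin 27 receptor, at 109.5 ± 59.2 TPM. Between them lay Il21r at 92.9 ± 36.2, Il6ra at 57.9 ± 24.2, the shared chain gene Il6st at 34.1 ± 23.7 and Il10rb at 13.3 ± 8.29 TPM. Of these 6, 4 were called as differing between libraries, a share near the 62.4% of all tested genes. Without replicate 3, 1 of the 6 was, where 31.1% of all tested genes were.

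Upstream of Stat4, 1 of 3 receptor genes was present (median −0.55). Il12rb1, the interleukin 12 receptor chain shared with interleukin 23, had 6, 6 and 2 counts, and Il23r had 7, 0 and 3. Il12rb2, the chain particular to interleukin 12, had 93, 89 and 102 counts, a mean of 14.3 ± 3.21 TPM, and 1519 of its exonic bases overlap the other strand. Of the 6 chains upstream of Stat5a and Stat5b, 4 were present (median 1.48). Il7r, the interleukin 7 receptor, had 219.7, 304.0 and 91.99 TPM and the common gamma chain Il2rg 72.8, 111.8 and 32.2 TPM. Il2ra, the high-affinity interleukin 2 chain, stood at 2.85 ± 1.77 TPM and Il15ra at 1.74 ± 0.809 TPM, while Il2rb had 44, 48 and 1 counts and Il9r 1 count in all. Upstream of Stat6, Il4ra, the interleukin 4 receptor, had 57.1, 84.5 and 32.4 TPM with 571 exonic bases of overlap, and Il13ra1 had 6, 4 and 3 counts.

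Among 16 inhibitors, 13 were present (median 3.02). Of the 15 tested, 8 were called as differing between libraries, where 62.4% of all tested genes were. Without replicate 3, 3 were called, against 31.1% of all tested genes. Ptpn6, which encodes the phosphatase SHP-1, was the highest at 149.9 ± 49.5 TPM (SD, n = 3), and Socs2 the lowest, with 0 counts in all libraries. The floor of 3 counts at Socs2 is 0.167, 0.161 and 0.211 TPM. Socs3, an inhibitor and a target of Stat3, had 453, 606 and 308 counts, or 83.2, 107.0 and 71.3 TPM. Cish, an inhibitor and a target of Stat5a and Stat5b, had 54, 51 and 8 counts, with 740 exonic bases of overlap.

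Known targets were described by the Stat gene they answer to. Of 10 targets or partners of Stat2, 6 were present (median 3.27), led by Irf7 at 28.6 ± 12.5 TPM and Irf9, the partner of Stat2, at 27.9 ± 14.8 TPM, and Rsad2 was the lowest with 6, 7 and 0 counts. Of 6 Stat3 targets, 3 were present (median 1.36), led by Socs3, and Il17a had 0 counts. Of 7 Stat4 targets, 3 were present (median −1.31): the interleukin 18 receptor gene Il18r1 at 28.4 ± 18.7 TPM, Il12rb2 and the protease gene Furin at 4.87 ± 3.00 TPM. Hlx had 0 counts, and Ifng and Tbx21 had 4 counts each in all. Of 7 targets of Stat5a and Stat5b, 5 were present (median 1.48), with the kinase gene Pim1 highest at 31.1 ± 14.1 TPM (468 exonic bases of overlap with the other strand) and Socs2 lowest. Of 5 Stat6 targets, 3 were present (median 3.36): Il4ra highest, then Gata3, the Th2 regulator, at 15.1 ± 6.00 TPM, and Il4, while Il24 had 0 counts. Genes that stand in more than 1 list (Il4ra, Il12rb2, Socs3, Cish and Il2ra among them) are counted in each.

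**Figure D5:**
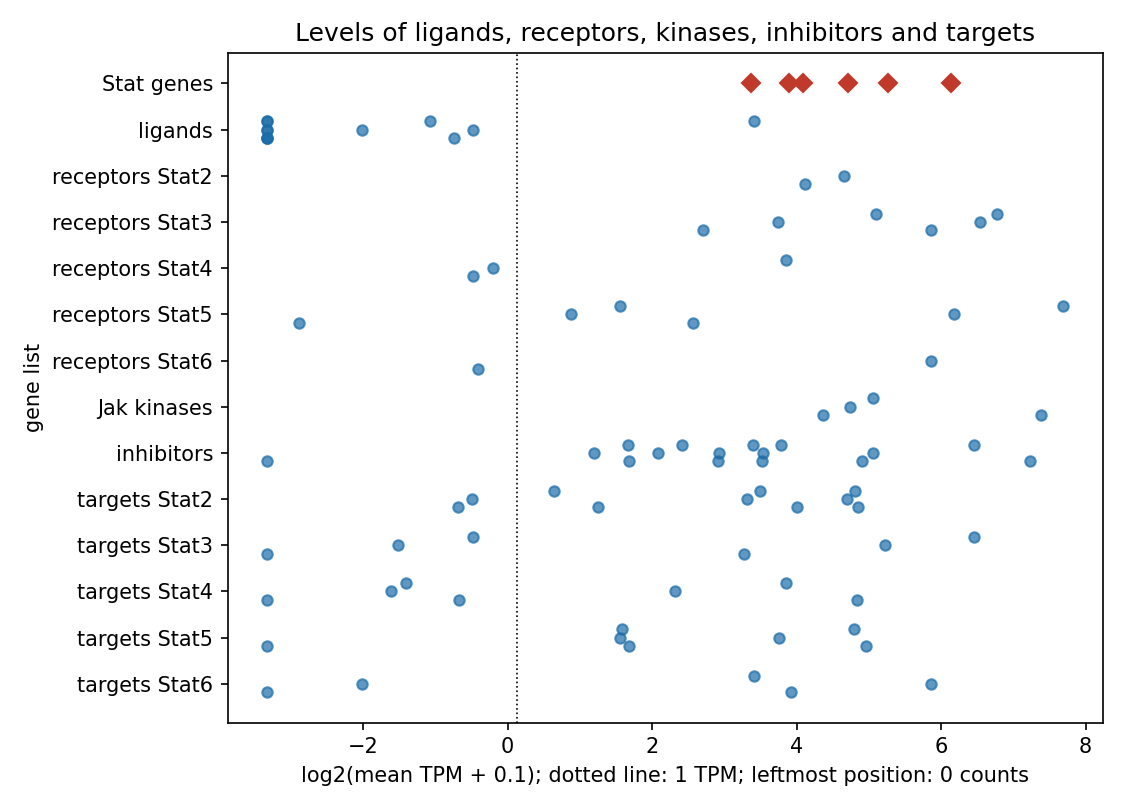
Mean level over 3 libraries as log2(TPM + 0.1) (horizontal axis) of the Stat genes (diamonds) and of each gene of the pathway lists (points) by list (vertical axis, vertical offsets within a list carry no meaning). Of the ligands 1 of 12 lies right of the 1 TPM line, and all 4 Jak kinases do.

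The genes outside the family with the nearest levels over the 3 libraries were Ranbp9 for Stat6, Uimc1 for Stat5b, Phax for Stat3, Lrig1 for Stat2, Tmx3 for Stat4 and Naa25 for Stat5a. Likeness was the Euclidean distance of log2(TPM + 0.1) over 3 libraries among protein-coding genes, and was 0.020 to 0.074 for these. Between 141 and 511 genes lay within 0.5 of each Stat gene, so many genes shared these levels. Uimc1 had 40.95, 59.8 and 15.3 TPM, against 40.7, 59.5 and 15.1 for Stat5b. Of the 6 nearest genes, all but Tmx3 have exons that overlap the other strand.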

How the data were processed

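The authors deposited raw counts, 1 table per library, which came from featureCounts 1.4.6-p4 on GENCODE M13 exons (both ends mapped, strand setting 1), per the file headers. The assembly is mm10, per the labels. Aligner version, trimming and library kit are not given in the sources used here. Symbols came from GENCODE M21 by identifier (50376 of 50600 named). TPM were computed from the counts and the deposited exon length, with 0.1 added before logs. TMM sizes and the count filter used edgeR 4.0.16, size factors DESeq2 1.42.0, overlaps bedtools 2.31.1 and tests scipy 1.17.1. Libraries were compared by Poisson chi-square (2 degrees of freedom), adjusted over the 10662 genes kept by filterByExpr. On simulated counts for this test over 10662 genes it called 0.00938% of unchanged genes, 44% of 100 genes changed by 1.5-fold and 99% of 100 changed by 3-fold. In the real libraries it called 62.4% of tested genes, and the simulated shares do not give its rate of false calls there. Pairs used exact sign-flip tests. Reads carry no molecular identifiers in these tables, so intervals and the floor of 3 counts reflect counting error alone.

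The 6 genes and the lists were chosen with earlier results of these data known. Genes named are the 6 members, the highest and lowest of each pathway list, Jak and receptor genes at 1 TPM or more, neighbours of the members and, per member, the gene of nearest level; others (marker genes, Irf9, Cish, Il4, Gata3, Furin and genes of low count) were named after their values were seen. The planned comparison of proteins was replaced by coding sequences.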

Additional observations from a re-analysis of the deposited data

How the results depend on the processing

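Relative to protein-coding genes without exon overlap with the other strand, mean levels rose to 344.3 (Stat6), 173.7 (Stat5b), 121.2 (Stat3), 85.2 (Stat2), 69.4 (Stat4) and 49.03 TPM (Stat5a), in the same order. With the longest coding transcript as length, chosen after the data were seen, Stat5a stood at 15.9 TPM. The log2 ratio of Stat5b to Stat3 reversed to −0.27 without length correction and to −0.057 with that transcript length, and that of Stat4 to Stat5a to −0.39 and −0.0023. Without bases shared on the same strand, a length also chosen after the data were seen, Stat2 to Stat4 reversed to −0.16. Pairs with 1 direction in all libraries numbered 13, against 15 without length correction and 10 with the longest coding transcript. With another pseudocount, with none or with a replicate left out, no pair reversed and 13 to 14 kept 1 direction. Of the 6 genes, 2 were called as varying with TMM (62.4% of all tested genes). With total counts 6 were called (82.5% of tested genes), and with TMM over genes without overlap 4 (53.6%). When a replicate was left out, 0 to 2 were called, with 0 without replicate 3 (31.1% of tested genes). Over all tested genes, leaving out a replicate gave 3316 (without replicate 3) to 6640 calls (without replicate 1), against 6649 of 10662. Of 49 pathway genes tested, 25 were called, where 62.4% of all tested genes were. Without replicate 3, 9 were called, where 31.1% of all tested genes were, a check added after the data were seen. Leaving out a replicate moved mean levels to between 56.6 and 82.6 TPM for Stat6, 27.9 and 50.1 for Stat5b and 8.49 and 12.6 for Stat5a, and pathway genes present to between 47 and 52. Counts of 40 to 837 per library limit the precision of single levels. No paired analysis was possible because the series holds 1 group.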
